A study of Mus musculus with 8 samples.

Results

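Collagens are the main structural proteins of connective tissue, and each is built from chains that wind around one another into a helix made of repeats of glycine and other amino acids. Fibrillar collagens form the cables of the stroma, fibril-associated collagens (FACITs) coat those cables, and network collagens form the sheets of basement membranes. Beaded filaments of type VI link the stroma to cells, and in fat each mature adipocyte is wrapped in a basement membrane rich in type IV and type VI collagen. The collagen genes were taken as every probe on the array whose gene symbol reads Col, a number, a and a number. There were 59 such probes for 37 genes, of 16593 named genes in all, and each gene was read from its brightest probe, judged by the average of all 8 arrays. The genes fell into 8 fibrillar, 7 network, 3 FACIT, 3 beaded filament and 7 cartilage genes, and 9 of other kinds (anchoring, transmembrane, multiplexin and others). A further 8 of 45 listed collagen genes, Col6a3, Col12a1, Col8a1 and Col22a1 among them, had no named probe and were not analysed here.

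The samples were total RNA of developing adipose tissue from C57BL/6 mice at 4 embryonic stages, from e15.5 through e16.5 and e17.5 to e18.5, and at the postnatal stages P0, P2, P5 and P12. No animal was treated or carried an altered gene, per the labels. Each stage was 1 pool on 1 Illumina MouseRef-8 BeadChip array. The labels put at least 3 embryos in a pool in one field and 4 in another, call the tissue white fat, and do not name the depot. No stage had a replicate, so every error below is the scatter of single pools around a fitted line or a period mean, and the number of arrays limits the precision. In such bulk tissue, fewer cells of a type and less RNA per cell cannot be told apart.

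All values are the authors' normalized log2 intensities, with the same median of 6.99 on every array. A probe was tested if it reached 7.5 on at least 2 arrays, which 7446 features of the whole array did. Of 37 collagen genes 20 passed that filter and 17 did not, and the tested genes are therefore those with signal at some stage. Markers of other tissues differed between arrays. The mean of 7 tested skeletal muscle markers was 13.56 at e15.5 and 12.51 at P0, and between 7.22 and 9.46 on the other arrays. The mean of 7 tested epidermis markers was 11.74 at e15.5 and 10.77 at P0, 9.53 at e16.5, 9.04 at P2, and 7.22 to 7.66 elsewhere. The mean of 7 adipocyte markers was lowest at e15.5, at 8.18, and was 11.25 by e18.5 and 11.53 by P12, and 5 of the 7, Adipoq and Lep among them, rose. Of 6 tested fibroblast and mesenchyme markers, including Pdgfra, Dcn and Lum, 0 passed in either direction. Lum came nearest, with a slope of -0.14 log2 per stage (limma adjusted p = 0.109), and the median slope of the 6 was 0.02.

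Collagen transcripts tended to go down through fat development, and none rose on the probes used. Of the 20 tested genes 10 fell and 0 rose with stage in limma's linear fit at an adjusted p of 0.05. Over all 7446 features 20.7% fell and 18.3% rose. Of the genes that fell, Col9a2 and Col23a1 reached 7.5 on 2 arrays and Col5a2 on 3, all embryonic. These genes were tested only through stages at which they are high, so the filter itself favours a fall for them. With 7.5 or more on all 8 arrays 7 of 13 tested genes fell and 0 rose, against 20.6% and 18.2% of all features. The slope was below 0 for 17 of 20 collagen genes and for 51.7% of all features, and its median was -0.15 log2 per stage for the collagen genes against -0.004 for all features. The genes that fell came from every class but the network collagens: 4 of 6 tested fibrillar genes, 2 of 2 FACITs, 1 of 2 beaded filament genes, 1 of 1 cartilage genes, 0 of 3 network genes and 2 of 6 of the others. The count rested in part on the last array. Without P12, 6 genes and 13.4% of all features fell (Col1a2, Col14a1, Col16a1, Col18a1, Col9a2 and Col23a1), while Col1a1 (adjusted p = 0.0771), Col5a1 (0.0523), Col5a2 and Col6a2 did not pass. Without the e15.5 and P0 arrays, where muscle and epidermis markers were high, 8 genes and 16.2% of all features fell, all 8 genes among the 10; this setting was chosen after seeing the data.

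**Figure D1:**
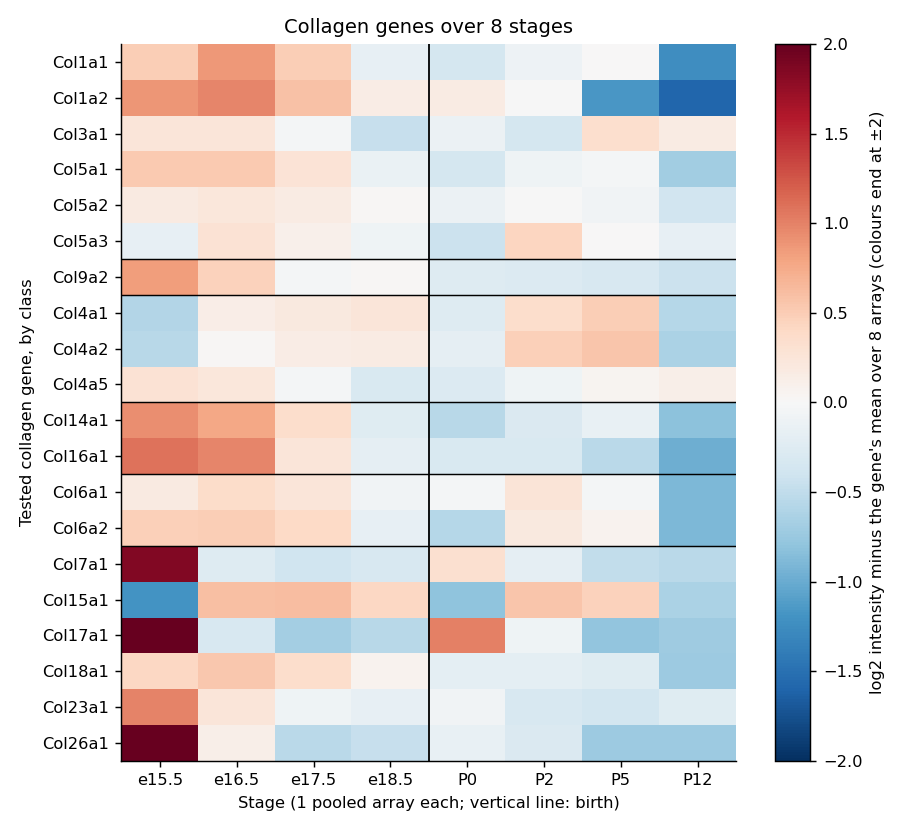
Heat map of the 20 tested collagen genes (rows, grouped by class with black lines) over the 8 stages (columns, 1 pooled array each). Colour gives the log2 intensity minus that gene's mean over the 8 arrays, with colours ending at 2 either way; most rows are red on the left and blue at P12, whereas Col4a1, Col4a2 and Col15a1 are blue at e15.5, P0 and P12.

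**Figure D2:**
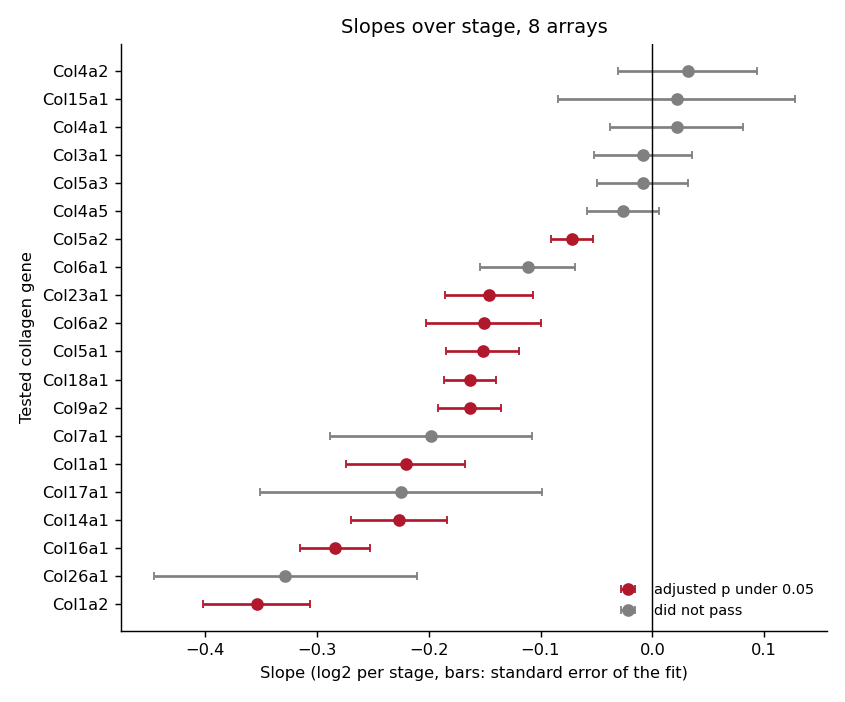
Slope over stage (log2 per stage, horizontal axis) of each tested collagen gene, with bars for the standard error of the limma fit over 8 arrays. The 10 red genes had an adjusted p under 0.05 and all lie left of 0; Col26a1, Col17a1 and Col7a1, in grey, have large negative slopes with wide errors.

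Among the fibrillar collagens, both type I chains and both main type V chains declined, while the tested probe of type III did not. Type I collagen is the bulk of the stromal fibril, and type V sits in its core and sets its diameter. Col1a1, the alpha 1 chain of type I, was 13.14, 13.51, 13.14 and 12.49 on the embryonic arrays in order of age and 12.29, 12.54, 12.65 and 11.40 on the postnatal ones. Its highest array was e16.5 and its lowest P12, 4.34-fold apart, and the embryonic and postnatal values overlapped. The slope was -0.22 log2 per stage (SE 0.05, limma adjusted p = 0.0137).

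Col1a2, the alpha 2 chain of type I, was 10.05, 10.14, 9.75 and 9.31 before birth, and 9.34, 9.15, 8.004 and 7.58 on the postnatal ones. It fell by 0.35 log2 per stage (SE 0.05, limma adjusted p = 0.0019), a total of 5.54-fold from e15.5 to P12. The partner chains differed at the step from P2 to P5, where the change was -1.15 for Col1a2 and 0.11 for Col1a1. From P5 to P12 it was -1.25 for Col1a1 and -0.42 for Col1a2. Col1a2 ended at 7.58, near the lower limit of the array, where differences can be compressed. The sizes of the last change therefore cannot be compared between the chains. Both chains moved in the same direction in 4 of 7 steps.

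Col5a1, the alpha 1 chain of type V, was 13.79, 13.80, 13.55 and 13.14 before birth and 12.92, 13.18, 13.22 and 12.57 after it. It fell by 0.15 per stage (SE 0.03, adjusted p = 0.00862), and its steps had the same direction as those of Col1a1 in 7 of 7 cases. Col5a2, the alpha 2 chain of type V, lay near the lower limit of the array, at 7.65, 7.69, 7.63 and 7.498 before and 7.35, 7.47, 7.39 and 7.09 after birth. Only 3 arrays, all embryonic, reached 7.5, and it fell by 0.07 per stage (SE 0.02, adjusted p = 0.0183). Col5a3, another chain of type V, ranged from 7.31 at P0 to 8.16 at P2 and did not pass (adjusted p = 0.879).

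Type III collagen, which mixes with type I in soft tissues, gave a different picture on each of its probes. The brighter probe of Col3a1 was 10.18, 10.17, 9.89 and 9.47 before birth and 9.82, 9.58, 10.26 and 10.10 after it, with a fitted change per stage of -0.01 (SE 0.04, adjusted p = 0.89). The dimmer probe was 8.35, 8.15, 9.02 and 9.004 at the embryonic stages and 9.38, 9.89, 10.27 and 9.89 after birth. All 4 postnatal values of that probe were above the embryonic ones, and with every probe tested separately it rose by 0.29 per stage (SE 0.04, adjusted p = 0.00194). Both probes carry the same transcript accession, and which of them follows the gene was not tested. Col3a1 and Col5a2 are adjacent on chromosome 1, and their steps had the same direction in 3 of 7 cases.

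The RefSeq promoter windows (GRCm38.p6, 250 bases before to 50 after the annotated start) of Col1a2, which fell, and of its fibril partner Col3a1, which did not pass on the probe used, are shown for comparison. The Col1a2 window is chr6:4505368-4505667 on the plus strand and that of Col3a1 is chr1:45311288-45311587 on the plus strand. Capitals mark runs on either strand: CCAAT, as in the binding sites of NF-Y, also GGGCGG, as in a GC box, and TATAAA, as in a TATA box.
Col1a2: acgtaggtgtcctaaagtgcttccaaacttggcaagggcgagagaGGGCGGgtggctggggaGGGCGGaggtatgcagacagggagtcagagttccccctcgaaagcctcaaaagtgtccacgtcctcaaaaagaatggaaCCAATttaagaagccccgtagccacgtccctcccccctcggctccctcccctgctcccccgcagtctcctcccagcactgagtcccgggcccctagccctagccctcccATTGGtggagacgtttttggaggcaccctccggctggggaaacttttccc
Col3a1: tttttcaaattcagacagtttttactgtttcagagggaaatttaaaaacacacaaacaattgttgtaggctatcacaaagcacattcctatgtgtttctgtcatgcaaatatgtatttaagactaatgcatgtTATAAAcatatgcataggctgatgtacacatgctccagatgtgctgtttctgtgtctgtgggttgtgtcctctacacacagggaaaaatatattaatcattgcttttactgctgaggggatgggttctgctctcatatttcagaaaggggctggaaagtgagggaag
The Col1a2 window held 4 matches, CCAAT 2 times and GGGCGG 2 times, and the Col3a1 window 1, TATAAA. Of 37 collagen genes 30 had a window in the table, 33 windows in all. GGGCGG was found in 60.6% of these and in 62.5% of 7253 windows of genes tested on the arrays. For CCAAT the shares were 36.4% and 38.2%, and for TATAAA 15.2% and 7.51%. Over all 32851 windows of that length the shares were 35.7%, 37.4% and 13.6% in the same order. A match is a run of letters and not a shown binding site.

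**Figure D3:**
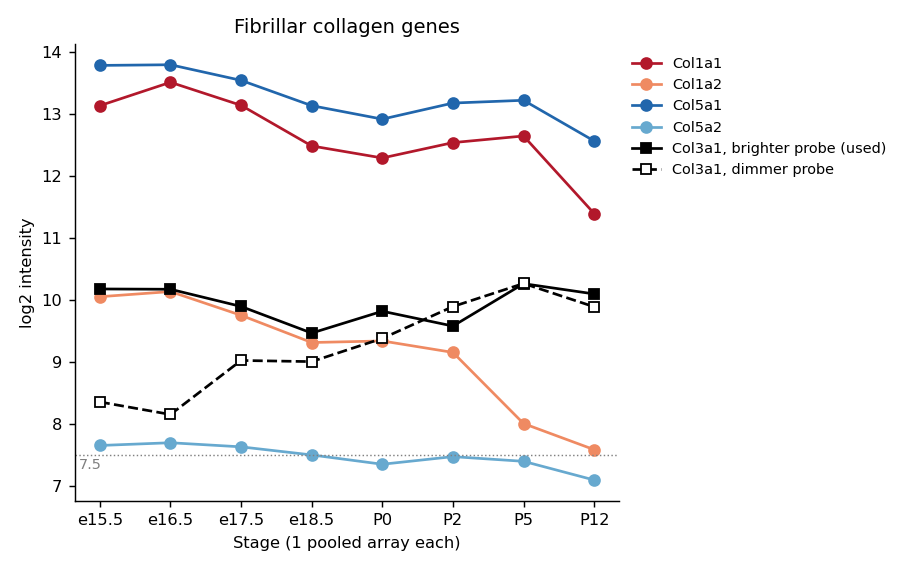
log2 intensity (vertical axis) of the fibrillar collagen genes at the 8 stages (horizontal axis, 1 pooled array each), with both tested probes of Col3a1 in black. Col1a1 and Col5a1 move in the same direction at each step, though Col1a1 drops further from P5 to P12. Col1a2 steps down from P2 to P5. The dimmer Col3a1 probe climbs from 8.35 to 9.89 while the brighter one is at 10.18 and 10.10 at the ends. The dotted line is the 7.5 limit.

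Both tested FACIT genes fell, and their decline began before birth. Type XVI collagen is a minor component of the matrix in skin and other connective tissues. Col16a1 was 12.47, 12.36, 11.63 and 11.21 before birth and 11.08, 11.07, 10.84 and 10.40 after it. Each array was lower than the one before, and no postnatal value reached the embryonic range. It fell by 0.28 per stage (SE 0.03, adjusted p = 0.00109), 4.19-fold from e15.5 to P12. Col14a1, which binds to the surface of type I fibrils, was 9.96, 9.81, 9.38 and 8.79 before and 8.48, 8.74, 8.89 and 8.22 after birth. It fell by 0.23 per stage (SE 0.04, adjusted p = 0.00528), but its P2 and P5 values lay above P0, so the periods overlapped at e18.5 and P5.

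Among the beaded filament genes Col6a1 changed little before P12 on the probe used, while Col6a2 dipped to 10.46 at P0 and was higher again at P2. Col6a1, the alpha 1 chain of type VI, was 13.49, 13.68, 13.56 and 13.25 before and 13.28, 13.58, 13.28 and 12.43 after birth, with a fitted slope of -0.11 (SE 0.04, adjusted p = 0.0685). The slope was -0.04 without P12 (adjusted p = 0.366), and it passed without P2 (adjusted p = 0.0347) and with days as the axis (0.0209). Its 3 probes disagreed: a second bright probe had a slope of -0.03 (adjusted p = 0.519), and a dim one, between 7.05 and 7.99, rose by 0.11 per stage (adjusted p = 0.0133). Col6a2, the alpha 2 chain and the neighbour of Col6a1 on chromosome 10, was 11.51, 11.52, 11.43 and 10.87 before and 10.46, 11.23, 11.10 and 10.14 after birth. It fell by 0.15 per stage (SE 0.05), with an adjusted p = 0.0483 that did not pass under 12 of 17 other settings. The genes moved in the same direction in 6 of 7 steps.

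The main network collagens of the basement membrane did not pass for trend, and their levels went up and down side by side. Col4a1 and Col4a2 encode the chains of the common type IV network, lie head to head on chromosome 8 and are read in opposite directions. Col4a1 was 12.81, 13.52, 13.58 and 13.62 before birth and 13.12, 13.73, 13.87 and 12.82 after it. Col4a2 was 11.73, 12.31, 12.44 and 12.45, then 12.11, 12.76, 12.83 and 11.65. Both were low at e15.5, P0 and P12 and highest at P5, and the periods overlapped. They moved in the same direction in 7 of 7 steps, and at no step did their changes differ by more than 0.165 log2. The slopes were 0.02 (SE 0.06, adjusted p = 0.789) and 0.03 (SE 0.06, adjusted p = 0.705), and both turned below 0 without the e15.5 array. The mean of 6 tested endothelial markers was 9.52, 10.18, 10.03 and 9.92 before birth and 9.67, 9.77, 10.29 and 9.70 after it. It was lowest at e15.5 and highest at P5, but from e16.5 to e18.5 it went down while both genes went up, and from P0 to P2 it differed by little while they were 0.61 and 0.64 higher. Its part in this pattern was not tested.

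The RefSeq promoter windows of this pair are shown because the genes share their start region: Col4a1 lies at chr8:11312777-11313076 on the minus strand and Col4a2 at chr8:11312555-11312854 on the plus strand (GRCm38.p6), and the windows have 78 bases in common. Capitals mark the same motifs as above.
Col4a1: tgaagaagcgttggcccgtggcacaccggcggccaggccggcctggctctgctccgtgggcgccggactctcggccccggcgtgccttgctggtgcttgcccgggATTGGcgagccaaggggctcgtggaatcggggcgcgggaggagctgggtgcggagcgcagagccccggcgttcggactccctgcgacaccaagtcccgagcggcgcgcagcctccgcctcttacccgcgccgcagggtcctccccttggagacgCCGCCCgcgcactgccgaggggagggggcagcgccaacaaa
Col4a2: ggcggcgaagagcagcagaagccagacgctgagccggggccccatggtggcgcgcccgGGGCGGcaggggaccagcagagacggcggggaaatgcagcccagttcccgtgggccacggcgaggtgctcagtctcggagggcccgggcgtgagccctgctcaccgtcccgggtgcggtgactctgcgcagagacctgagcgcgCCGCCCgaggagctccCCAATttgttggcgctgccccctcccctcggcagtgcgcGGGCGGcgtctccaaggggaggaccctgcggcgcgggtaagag
The Col4a1 window held 2 matches and the Col4a2 window 4, in each case CCAAT 1 time and otherwise GGGCGG.

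The other type IV chains were weak or at the lower limit of the array. Col4a5, which is mutated in Alport syndrome in humans, was 8.13, 8.05, 7.79 and 7.53 before birth and 7.56, 7.75, 7.89 and 7.94 after it. It did not pass for trend (adjusted p = 0.532), and its neighbour on the X chromosome, Col4a6, stayed at 7.01 or below on every array. Col4a3 and Col4a4, the adjacent pair that joins Col4a5 in the kidney glomerulus, had highest values of 7.07 and 7.17, and Col8a2, a network collagen of the cornea, 6.99.

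Type XV and XVIII collagen, the multiplexins of basement membrane zones, took different courses. Col15a1 was 9.11, 10.90, 10.91 and 10.71 before birth and 9.49, 10.85, 10.76 and 9.67 after it. It was low on the e15.5, P0 and P12 arrays, as were Col4a1 and Col4a2, and its slope of 0.02 (SE 0.11, adjusted p = 0.884) turned to -0.14 without e15.5. Around birth its changes were -1.22 from e18.5 to P0 and 1.36 from P0 to P2, while those of Col17a1, below 7.5 at e18.5, were at least 1.32 and then -1.10. Col18a1, the source of the fragment endostatin, was 12.50, 12.63, 12.43 and 12.15 before and 11.89, 11.90, 11.85 and 11.36 after birth. All 4 postnatal values were below all 4 embryonic ones. It fell by 0.16 per stage (SE 0.02, adjusted p = 0.0022), and a second, dim probe also fell, by 0.10 per stage (adjusted p = 0.00764).

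Several collagens were high on the e15.5 array above all. Col17a1, a transmembrane collagen of the hemidesmosomes of basal keratinocytes, was 9.94, 7.49, 7.12 and 7.25 before birth and 8.82, 7.72, 7.01 and 7.10 after it. Col7a1, the anchoring fibril collagen that ties epidermis to dermis, was 9.45, 7.34, 7.19 and 7.28, then 7.91, 7.41, 7.10 and 7.06. Both were highest at e15.5 and next highest at P0, and neither slope passed (adjusted p = 0.183 and 0.113). Of 9 epidermis markers on the array 7 were tested, and Dsg1a and Perp never reached 7.5. The summed level of the 7 was 15.89 on the log2 scale at e15.5, 15.23 at P0, 14.26 at e16.5, 12.97 at P2 and 10.29 to 10.71 elsewhere. With the epidermis mean as a covariate the slope of Col17a1 was 0.02 (SE 0.07) and that of Col7a1 -0.05 (SE 0.07), and without the e15.5 array both slopes were -0.03. With the muscle mean as a covariate they were 0.04 (SE 0.07) and -0.03 (SE 0.07). Both marker means were highest at e15.5 and next highest at P0, so their parts cannot be told apart, and the cause was not tested.

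Col26a1, also known as Emid2, was 10.77, 8.13, 7.48 and 7.56 before and 7.87, 7.73, 7.29 and 7.29 after birth. It was at least 9.68-fold higher at e15.5 than at P12, taking 7.5 as the lower limit, with a slope of -0.33 (SE 0.12) that missed the threshold (adjusted p = 0.0558). The change from e15.5 to e16.5 was -2.64, and without the e15.5 array the slope was -0.098 (adjusted p = 0.121). Col23a1, a transmembrane collagen, was 8.48, 7.74, 7.41 and 7.34, then 7.42, 7.17, 7.13 and 7.26. Only the e15.5 and e16.5 arrays reached 7.5, so Col23a1 was tested through the stages at which it is high. It fell by 0.15 per stage (SE 0.04, adjusted p = 0.0205), but without e15.5 the slope was -0.078 (adjusted p = 0.0625). It also did not pass with the muscle covariate (adjusted p = 0.156), the epidermis covariate (0.137) or days as the axis (0.159). The mean muscle and epidermis markers were both highest on the e15.5 array. With the muscle mean as a covariate the slope was -0.155 for Col26a1 and -0.0973 for Col23a1, and with the epidermis mean -0.155 and -0.0994.

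**Figure D4:**
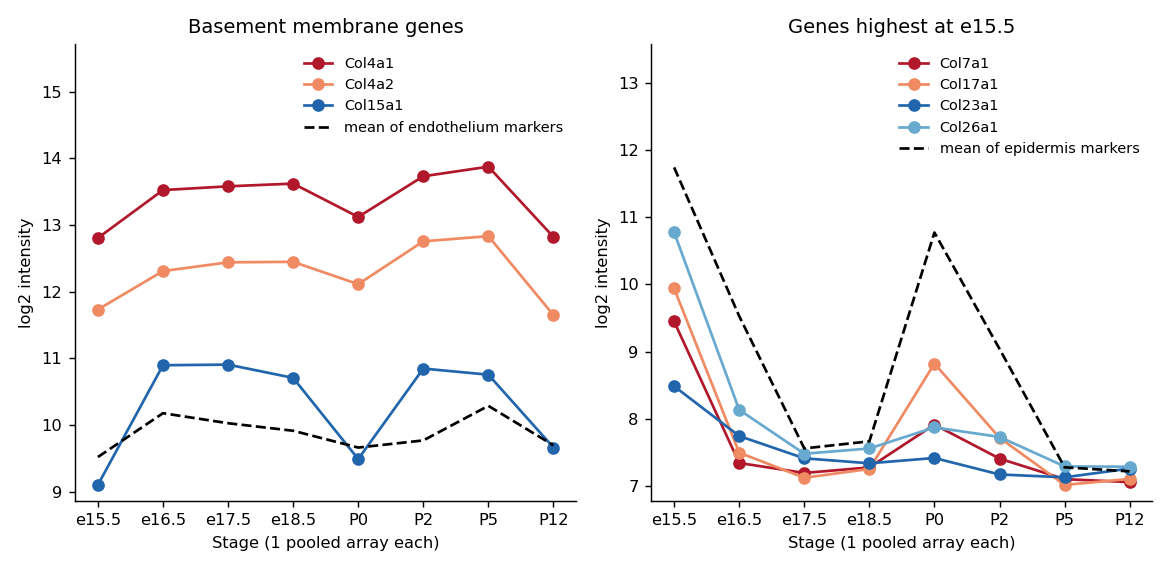
log2 intensity (vertical axes) at the 8 stages (horizontal axes, 1 pooled array each). Left, Col4a1, Col4a2 and Col15a1 with the mean of the tested endothelial markers (dashed), all lower at e15.5, P0 and P12 than at P5; right, Col7a1, Col17a1, Col23a1 and Col26a1 with the mean of the tested epidermis markers (dashed), highest at e15.5, with a second, lower peak at P0 for Col7a1, Col17a1, Col26a1, the markers and, by a small margin, Col23a1.

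Cartilage collagens were near the lower limit of the array, with 1 exception. Col9a2, the alpha 2 chain of the type IX collagen of cartilage, was 8.17, 7.78, 7.30 and 7.36 before and 7.08, 7.06, 7.01 and 6.90 after birth. Only the e15.5 and e16.5 arrays reached 7.5, so the gene was tested through the stages at which it is high, and the order of the other 6 values is one of signals near the floor. It fell by 0.16 per stage (SE 0.03, adjusted p = 0.00398), and did not pass with days as the axis (adjusted p = 0.0571). The other 6, Col2a1, Col9a1, Col9a3, Col10a1, Col11a1 and Col11a2, did not exceed 7.09 on any array. Of 8 other cartilage markers 6, Acan, Matn1 and Comp among them, never reached 7.5. The chondrocyte regulator Sox9 was 7.72 at e15.5, 8.18 at e16.5 and 6.83 at P12. It fell by 0.17 per stage (limma adjusted p = 0.00822). Sox9 reached 7.5 only at e15.5, e16.5 and e17.5 (7.56), so it too was tested through the stages at which it is high. Cytl1 went the other way, from 6.90 at e15.5 to 7.69 at P12. It reached 7.5 at P12 only and was not tested. None of 5 tendon markers and 1 of 5 bone markers, Alpl, was tested.

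The remaining untested genes were Col24a1, Col27a1, Col19a1, Col6a6, Col13a1, Col25a1 and Col28a1. Col24a1, a minor fibrillar collagen, reached 7.94 at e15.5 and at most 7.18 later, and Col27a1 reached 7.56 at e15.5. Col28a1 had its highest value, 7.49, at P2, and the other 4 genes did not exceed 7.03. A level below 7.5 is near the floor of the array and does not show that a transcript is missing.

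The step from P5 to P12 held the broadest loss of collagen signal. Of 14 genes at 7.5 or more on both arrays 13 were lower at P12, with a median change of -0.67 log2, where the median over all 6306 such features was -0.01 and 52.5% of them were lower. Between these arrays 4 genes were at least 2-fold lower, Col1a1 (-1.25), Col4a2 (-1.18), Col15a1 (-1.09) and Col4a1 (-1.05), against 0.698% of all features. At 1.5-fold there were 8, with Col6a2 (-0.96), Col6a1 (-0.86), Col14a1 (-0.68) and Col5a1 (-0.66) added, against 3.19% of all features. The gene that did not go down was Col4a5, up 0.06. Over the same step the mean of the fibroblast markers went from 11.08 to 10.67, and that of the endothelial markers from 10.29 to 9.70. With 1 pool per stage this step has no replicate check, and it spans more days than any other.

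At the other steps fewer genes moved 2-fold. From e15.5 to e16.5 the change was 1.79 for Col15a1 and -2.64 for Col26a1, 1 gene each way of 18, against 1.08% up and 2.49% down of all features. Col17a1 (-2.44) and Col7a1 (-2.11) were also lower at this step, but they were below 7.5 at e16.5 and were not counted. From e16.5 to e17.5 no collagen gene moved that far (2.26% up and 0.311% down over all features), nor did any from e17.5 to e18.5 (1.98% and 0.459%), but 12 of 15 and 12 of 14 genes were lower, with medians of -0.19 and -0.36. Over all features 58.8% and 54.6% were lower at these steps, with medians of -0.06 and -0.03. From e18.5 to P0 Col15a1 was lower (1.7% of all features), and from P0 to P2 it was higher (0.806%) while Col17a1 was lower (1.28%). Col17a1 was higher by at least 1.32 from e18.5 to P0, but it was below 7.5 at e18.5 and was not counted. From P2 to P5 only Col1a2 moved 2-fold, down (1.27%). In all, 2 steps up and 8 steps down reached 2-fold with 7.5 or more at both stages. With no such limit 3 steps up and 10 down did.

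**Figure D5:**
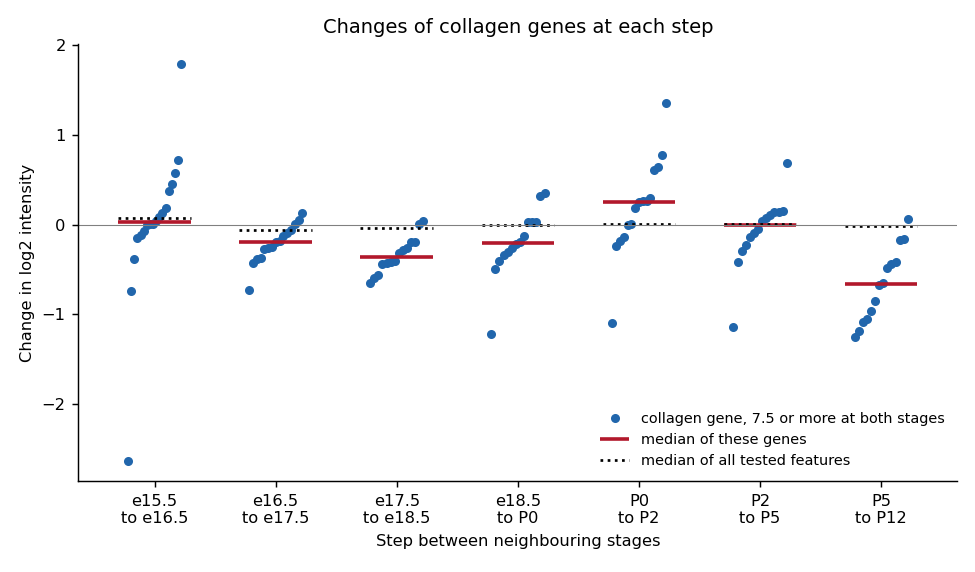
Change in log2 intensity (vertical axis) at each step between neighbouring stages (horizontal axis). Points are tested collagen genes at 7.5 or more at both stages, the red bar is their median and the dotted bar that of all tested features at 7.5 or more at both; at the last step 13 of 14 points lie below 0 and the red bar is at -0.67.

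Setting the 4 postnatal against the 4 embryonic arrays asked which collagens differ before and after birth; a sudden drop and a steady decline look alike in it. In limma's fit 0 of 20 collagen genes were higher and 0 lower at an adjusted p of 0.05 (0.0134% and 0% of all features), and with no adjustment 0 and 8 passed at 0.05 (14.5% and 18.4% of all features). The smallest adjusted p was that of Col18a1, 12.43 before (SD 0.20, n = 4) and 11.75 after birth (SD 0.26, n = 4), a difference of -0.68 (SE 0.16, limma adjusted p = 0.0564). All 4 postnatal arrays lay below all 4 embryonic ones for 4 of 20 genes, Col5a2, Col9a2, Col16a1 and Col18a1, as they did for 10.7% of all features, though every postnatal value of Col5a2 and Col9a2 was below 7.5. The reverse held for 0 of 20, against 8.21%. Without the e18.5 array 7 collagen genes were lower after birth, as were 14.4% of all features, and without any other single array 0 were.

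A curvature test asked whether the middle stages depart from a straight line. In limma's fit 0 of 20 genes lay above and 0 below at an adjusted p of 0.05 (0.524% and 0.175% of all features), and with no adjustment 1 and 5 did so at 0.05 (11.1% and 9.47% of all features). The gene above the line was Col1a2, whose loss was concentrated after P2. Those below were Col4a5, with the smallest adjusted p of 0.0983, Col23a1, Col9a2, Col3a1 on the probe used, and Col26a1. Col23a1 and Col9a2 reached 7.5 on 2 arrays and Col26a1 on 5, and differences near the floor can be compressed, which can itself bend a fall below the line.

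The enzymes that build collagen largely fell as well. In a list of folding and modification genes, 9 of 12 tested members fell and 0 rose, against 20.7% and 18.3% of all features, with a median slope of -0.17. P4hb, the protein disulfide isomerase subunit of prolyl 4-hydroxylase, fell by 0.23 per stage (adjusted p = 0.00167), and the prolyl 3-hydroxylase P3h1 fell by 0.22 and P3h3 by 0.21. Serpinh1, the collagen chaperone HSP47, named here after its values were seen, had its lowest value of 7.98 at P0 and its highest of 9.60 at P5, with no call for trend (adjusted p = 0.869). In procollagen processing and cross-linking 1 of 6 rose and 1 fell, near the shares over all features. The enhancer Pcolce2 rose by 0.32 per stage (adjusted p = 0.00242), and the cross-linking oxidase Lox fell by 0.30 (adjusted p = 0.00651).

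Among collagen receptors 1 of 4 rose and 1 fell. Over all features 18.3% rose and 20.7% fell, so counts this small do not set this list or the next apart. The fibrillar collagen integrin Itga11 rose by 0.31 per stage, from 8.30 at e15.5 to 10.00 at P12 (adjusted p = 0.0105), and the receptor kinase Ddr1 fell by 0.13 (adjusted p = 0.0490). Of the collagenases and gelatinases 0 of 3 rose and 1 fell, the membrane protease Mmp14 (by 0.13 per stage, adjusted p = 0.0234), while Mmp9 did not pass (adjusted p = 0.0692). Mmp8 and Mmp13 did not reach 7.5 on any array.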

How the data were processed

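Each of 8 stages was measured on 1 array of pooled RNA. Per the labels' protocols, BeadStudio extracted the array data. The deposited log2 intensities, 1 column per sample, were used as the authors normalized them. Their sorted values were equal to within 0.005 between arrays, so changes in total signal are hidden. The log base was taken from their range, 6.66 to 15.10, and the background treatment, normalization method and offset were not given in the sources used here. A table of unnormalized signals was not used, because its 16 per-sample columns match no sample label. The limit of 7.5 stands in for a detection call.

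Gene names came from the platform annotation: 23978 of 25697 had 1 symbol, 0 several and 1719 none. Keeping 1 probe per gene left 18312 features, and 7446 passed the filter. Fits across all 7446 used limma 3.58.1 in R 4.3.3 with Benjamini-Hochberg adjustment at 0.05: stage order 1 to 8 as a line, 4 postnatal against 4 embryonic arrays, and a quadratic term. Steps had no test. They were counted only for genes at 7.5 or more at both stages. Folds between named stages use 7.5 in place of lower values. The alternatives were another or no filter, array weights, every probe, marker covariates, days as the axis, no variance moderation and leaving out arrays.

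The collagen genes, their classes and the other lists were chosen with earlier results of these data known. Values on all 8 arrays were given for genes that passed a fit or ranged over 2 log2 or more, and for some others. In each list of enzymes or receptors at most 4 genes were named. They were those with the largest slopes, except Serpinh1 and the untested Mmp8 and Mmp13.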

Additional observations from a re-analysis of the deposited data

Results flagged for a closer look

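Within a period of 4 arrays, 1 array stood far from the other 3 for 6 of the 40 gene and period groups examined, by Dixon's gap ratio with a critical value of 0.829. Chance marks about 1 in 20 such groups, and the arrays of a period are different stages rather than replicates. The e15.5 array was set apart for 4 genes: Col15a1 at 9.11 (others 10.71 to 10.91) and Col4a1 at 12.81 (others 13.52 to 13.62) were low, and Col17a1 at 9.94 (others 7.12 to 7.49) and Col7a1 at 9.45 (others 7.19 to 7.34) were high. Col6a2 at e18.5 was 10.87 against 11.43 to 11.52 on the other embryonic arrays. Col18a1 at P12 was 11.36 against 11.85 to 11.90 on the other postnatal arrays.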

How the results depend on the processing

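Leaving out 1 array at a time gave 6 to 11 falling and 0 rising collagen genes, 0 to 7 lower and 0 higher after birth, and 0 either way for curvature. With 7.5 or more on all arrays 7 of 13 tested genes fell (20.6% of all features), and with no filter 11 of 37 (8.59%). Under the other alternatives 8 to 10 of 20 fell (12.3% to 21.8%). Col1a2, Col14a1, Col16a1 and Col18a1 passed in all 17 alternatives run for each. After birth 1 of 13 tested genes was lower with 7.5 or more on all arrays (2.92% of all features), 6 of 20 with array weights (14.3%) and 4 of 20 with the epidermis covariate (5.57%). At 1.5-fold 7 steps went up and 16 down. Over all features 2.94% to 5.95% went up and 2.51% to 5.01% down at a single step. Signs turned only for slopes that passed in no setting: with array weights Col15a1 (-0.046) and Col3a1 (0.0040); with the muscle covariate Col15a1 (-0.175), Col3a1 (0.0038), Col4a1 (-0.060), Col4a2 (-0.032) and Col17a1 (0.043); with the epidermis covariate Col15a1 (-0.139), Col4a1 (-0.042), Col4a2 (-0.015) and Col17a1 (0.023); with days Col15a1 (-0.015), Col3a1 (0.0091), Col4a1 (-0.012) and Col4a2 (-0.012); without e15.5 and P0 Col15a1 (-0.138), Col3a1 (0.022), Col4a1 (-0.050), Col4a2 (-0.032) and Col4a5 (0.0024). Single arrays left out gave -0.14 to 0.12 for Col15a1, -0.037 to 0.022 for Col3a1, -0.050 to 0.11 for Col4a1, -0.032 to 0.14 for Col4a2, -0.056 to 0.002 for Col4a5 and -0.036 to 0.013 for Col5a3. The cause was not tested. No paired analysis was possible because no stage has a replicate. Dim probes near 7 have compressed differences.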

Other observations

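With no filter on low values all 37 collagen genes were tested, and 11 fell and 0 rose in limma's fit, against 8.59% and 7.18% of all 18312 features. The additions were Col24a1, a slope of -0.12 (SE 0.03, adjusted p = 0.0491) with a single array above 7.5, and Col8a2, a slope of -0.03 (SE 0.0069, adjusted p = 0.0419) whose values ran from 6.79 to 6.99. Col6a2 did not pass there.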
